A study of Mus musculus with 4 samples.

Results

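Nuclear receptors are transcription factors of one protein family, most of which bind DNA through a pair of zinc fingers and change their activity when a small fat-soluble molecule enters a pocket in the same protein. The family covers sensors of fatty acids, sterols, retinoids, steroids, thyroid hormone and vitamin D, and orphan members whose activity is set mainly by how much of them is made. Many, PPARγ among them, bind DNA only as a dimer with a retinoid X receptor (RXR). Alveolar macrophages live in the airspaces of the lung, where PPARγ is known for driving the handling of the lipids of lung surfactant.

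The genes described are a list of 46 mouse nuclear receptor genes, and 41 of them could be measured among 18782 genes. Each gene was read from a probe set annotated with that symbol alone, and where a gene had several the brightest over the 4 arrays was taken. Nr1d1, Thra and Nr1i3 lay only on probe sets that also list another gene, and Nr1h2 and Nr2e3 were not analysed here. Membership of the protein family, not a measured value, put a gene in the list.

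Alveolar macrophages of adult C57BL/6 mice were compared between 2 genotypes with 2 arrays each. Mice labelled WT carried floxed Pparg alleles and no Cre. Mice labelled KO carried the same floxed alleles and a Cre recombinase under the CD11c promoter, which is also active in dendritic cells. Every array held sorted cells pooled from 2 mice, so both groups share the floxed alleles and neither shows single animals. Viable, CD45-positive, CD11c-high, autofluorescent and Siglec-F-positive cells were taken in both genotypes, with low CD11b in WT and high CD11b in KO, so the genotype cannot be told apart from the CD11b gate.

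Values are log2 expression values, normalised together with RMA by the authors, on which a step of 1 is a doubling. A gene is called expressed here when its mean over the arrays of a group lies above the array median, which was 3.137 on each array. Each difference is the KO mean less the WT mean in log2 units, given with its standard error (SE) from a limma fit over all 18782 genes, and "rose" and "fell" are used for an adjusted p under 0.05 in that fit. By that rule 14.3% of all genes changed, 7.41% rose and 6.86% fell. Correlations across probe sets were 0.995 between the WT arrays, 0.996 between the KO arrays and 0.974 to 0.980 between genotypes. Probe sets differ in how brightly they bind, so levels are compared between arrays and not between genes.

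Of 13 measured alveolar macrophage markers, 0 rose in KO, 5 fell (Cidec, Fabp1, Siglecf, Krt19 and Krt79) and 8 were not past the test. That is 38.5% changed, beside 14.3% of all genes and 23.5% of genes above the array median in WT. Siglecf, which encodes the sorting marker Siglec-F, fell by 3.27 ± 0.17, Krt79 by 6.19 ± 0.50 and Krt19 by 4.93 ± 0.26 (SE; limma adjusted p = 1.64e-04, 7.86e-04 and 1.85e-04). Of the 8, Plet1, Chil3 and Atp6v0d2 differed by -0.04, 0.04 and 0.00, and Itgax, Cd9 and Car4 by 0.24, -0.245 and -0.315. Marco differed by -2.62 ± 0.80 and Fabp4 by -2.07 ± 0.68 (limma adjusted p = 0.0897 and 0.109). Their KO arrays lay below WT arrays that were far apart (7.22 and 4.43 for Marco, 7.57 and 5.21 for Fabp4). Of the 13, 13 lay above the array median in WT and 12 in KO, and their mean log2 value was 9.80 and 9.17 in the WT arrays and 7.02 and 7.18 in the KO arrays. For 10 markers of interstitial macrophages and monocytes the means were 4.63 and 4.72 in WT and 7.22 and 6.96 in KO, with 8 higher and 2 lower. All 10 changed, beside 14.3% of all genes and 23.5% of genes above the array median in WT. The 2 that fell were Treml4 (-2.39 ± 0.31) and Fcgr1 (-0.66 ± 0.11). Among the 8 is Itgam, which encodes CD11b itself, so its rise of 5.76 ± 0.14 cannot be told apart from the CD11b gate. Its WT arrays (3.10 and 2.87) lay below the array median, so the size of that rise also depends on the floor of the scale. List means for markers of epithelium, endothelium, fibroblasts, lymphocytes, neutrophils, eosinophils and mast cells, and dendritic cells lay between 1.95 and 4.18 on every array. Of the 8 eosinophil and mast cell markers 0 lay above the array median in either group, and of 10 lymphocyte markers 1 did in WT and 2 in KO. Of 15 epithelial markers 9 did in WT and 7 in KO, and of 9 endothelial markers 4 and 3. Of 9 fibroblast markers 3 did in each genotype, as did 3 of 9 neutrophil markers. Of 10 dendritic cell markers 4 did in WT and 5 in KO. The epithelial marker Scgb1a1 read 6.89 and 4.26 in WT and 6.48 and 6.63 in KO, and Cdh1 read 6.83 to 7.07. Single markers of these lists moved more than the means. Among epithelial markers Epcam (-4.37 ± 0.18), Ager (-1.32 ± 0.12) and Krt18 (-0.57 ± 0.12) fell and Hopx (2.66 ± 0.19) rose. Epcam was below the array median in KO and Krt18 on all 4 arrays, so the sizes of these falls depend on the floor of the scale. The endothelial marker Vwf rose (1.16 ± 0.10), as did the lymphocyte marker Cd4 (0.42 ± 0.10). Cd4 was dim, reading 2.73 and 2.69 in WT and 3.08 and 3.18 in KO, with both means below the array median. Among neutrophil markers S100a8 rose (1.92 ± 0.18) and Csf3r fell (-1.54 ± 0.17), and among dendritic cell markers Cd209a rose (2.04 ± 0.19) and H2-Ab1 (-0.89 ± 0.19) and Ccl22 (-1.02 ± 0.22) fell. The WT arrays of Cd209a (2.70 and 2.75) also lay below the array median. The part of these markers in the differences below was not tested. In pooled cells, fewer cells of a kind and less RNA per cell cannot be told apart.

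In WT macrophages 20 of the 41 nuclear receptor genes lay above the array median, 48.8% beside 53.1% of all genes. They were Pparg, Ppard, Rxra, Rxrb, Rara, Rarg, Nr1h3, Nr1d2, Rora, Vdr, Nr2c1, Nr2c2, Nr2f6, Nr3c1, Nr3c2, Esrra, Nr4a1, Nr4a2, Nr4a3 and Nr6a1. All 20 were also above it in KO, where Rarb and Esr1 joined them to make 22, beside 53.4% of all genes. The remaining 19 were below the array median in both genotypes, and their values ran from 1.53 to 3.16. These included Ppara, Rxrg, the bile acid receptor gene Nr1h4, the xenobiotic receptor gene Nr1i2, the thyroid hormone receptor gene Thrb, Hnf4a and Hnf4g, both COUP-TF genes (Nr2f1 and Nr2f2), Esr2 and Pgr. Just above the line in WT lay Nr3c2 (3.93) and Nr6a1 (4.24), and just below it Nr5a1 (3.003) and Esr1 (2.93).

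**Figure D1:**
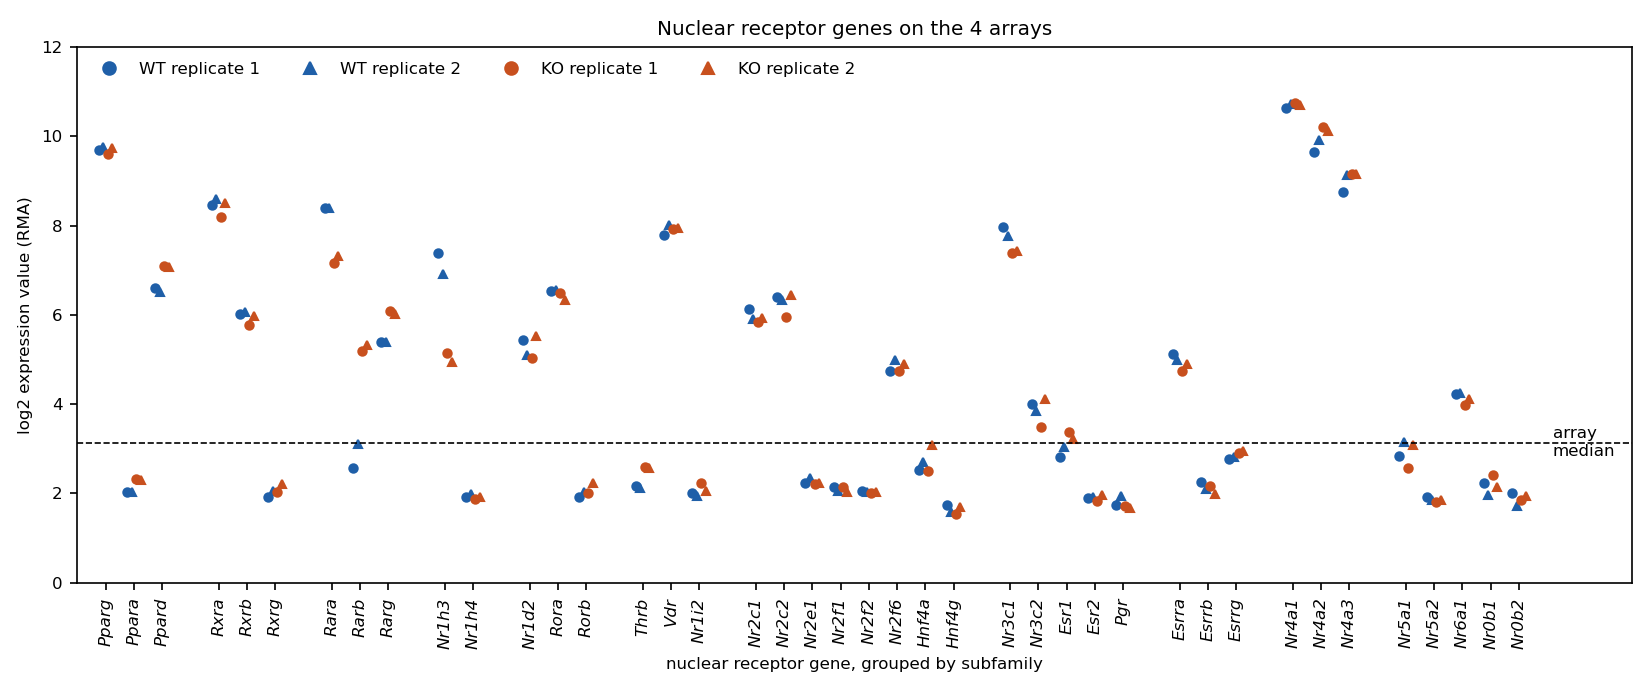
Log2 expression value (vertical axis) of the 41 measured nuclear receptor genes (horizontal axis, grouped by subfamily) on each of the 4 arrays, with the array median of 3.137 as a dashed line. In WT 20 genes lie above the line, and the arrays of the genotypes part most for Rarb, Nr1h3 and Rara.

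Of the 41 genes, 4 rose in KO (Rarb, Rarg, Ppard and Thrb), 3 fell (Nr1h3, Rara and Nr3c1) and 34 were not past the test. That is 17.1% changed, beside 14.3% of all genes. Of the 20 genes expressed in WT, 5 changed (25.0%), beside 23.5% of all genes above the array median in WT. The family changed about as often as other genes. The median difference was -0.02 over the family and -0.015 over all genes, and 3 members differed by at least 1, Rarb, Nr1h3 and Rara. Leaving out KO replicate 1 left Rarb as the 1 gene that rose and Nr1h3 and Rara as the 2 that fell, while 7.36% of all genes changed. The share of all genes was 9.3% on leaving out WT replicate 1, 12.2% for WT replicate 2 and 7.79% for KO replicate 2. It was 17.4% with a variance that follows the level and 4.44% against a difference of 0.5. With dim genes left out, 3028 genes changed, which is 29.5% of the 10253 genes kept. Rarb, Nr1h3 and Rara stayed past the test whichever array was left out.

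**Figure D2:**
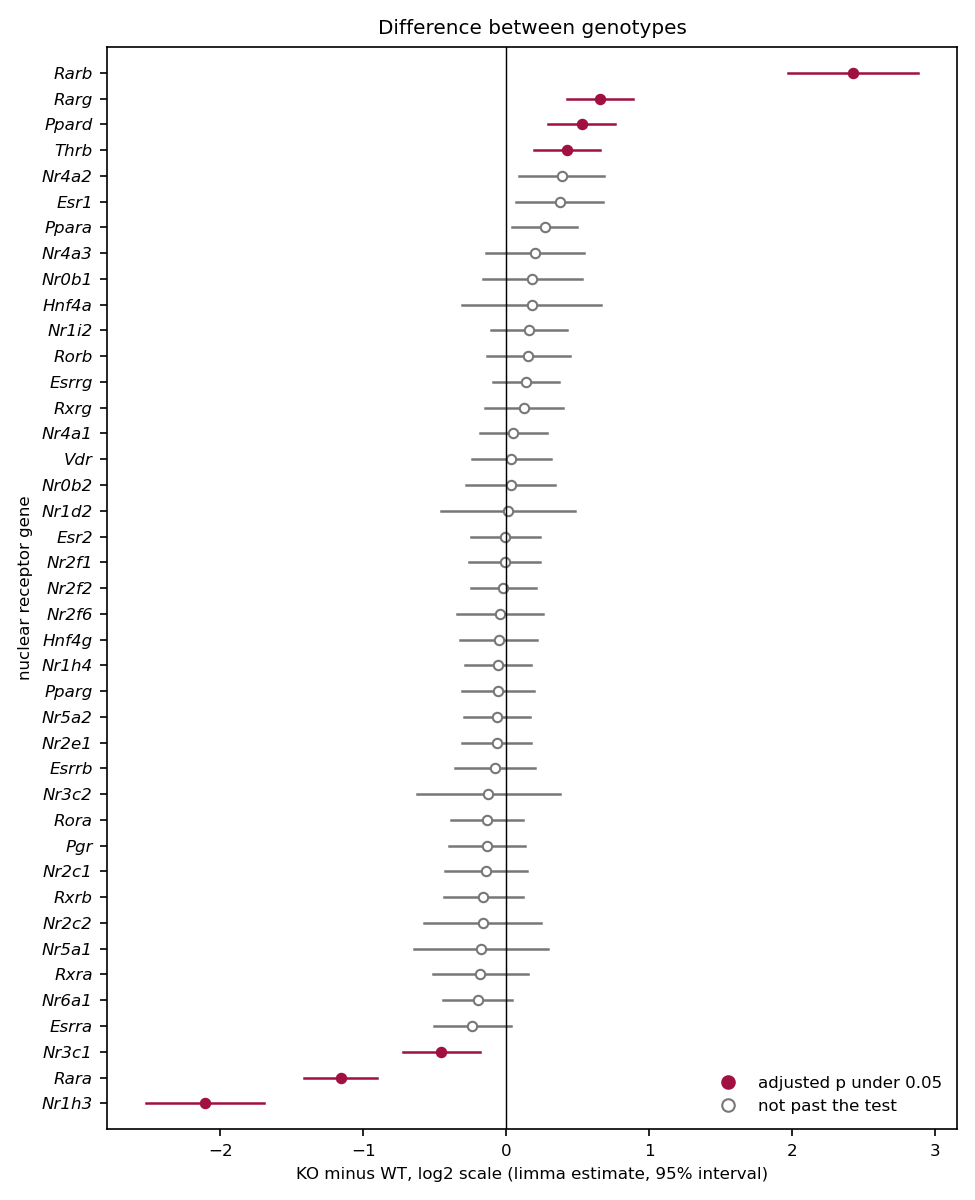
KO minus WT difference on the log2 scale (horizontal axis) of each measured nuclear receptor gene (vertical axis, ordered by difference), as the limma estimate with its 95% interval. Filled points are the 7 genes with an adjusted p under 0.05, and Rarb (2.43), Nr1h3 (-2.11) and Rara (-1.16) lie farthest from 0.

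The retinoic acid receptor genes changed in different directions. These receptors (RARα, RARβ and RARγ) bind all-trans retinoic acid and work as dimers with RXR, and Rarb is itself a textbook target of retinoic acid, through a repeat of receptor binding sites just before its start. The stretches before the start of the 3 genes are shown because all 3 passed the test and the known element lies within the window for Rarb. Each is the 250 bases before a RefSeq start site on mouse build GRCm38.p6, read 5′ to 3′ on the strand of the gene, at chr14:16575477-16575726 (minus strand) for Rarb, chr11:98937446-98937695 (plus strand) for Rara and chr15:102257523-102257772 (minus strand) for Rarg. Capitals mark matches on either strand to a direct repeat of the hexamer NGNTCA with 5 bases between the copies, or to AGGTCA.
Rarb: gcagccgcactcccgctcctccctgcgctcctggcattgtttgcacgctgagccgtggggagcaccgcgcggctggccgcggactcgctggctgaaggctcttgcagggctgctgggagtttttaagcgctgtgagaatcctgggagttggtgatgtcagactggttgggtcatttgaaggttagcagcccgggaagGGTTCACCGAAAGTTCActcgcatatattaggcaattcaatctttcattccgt
Rara: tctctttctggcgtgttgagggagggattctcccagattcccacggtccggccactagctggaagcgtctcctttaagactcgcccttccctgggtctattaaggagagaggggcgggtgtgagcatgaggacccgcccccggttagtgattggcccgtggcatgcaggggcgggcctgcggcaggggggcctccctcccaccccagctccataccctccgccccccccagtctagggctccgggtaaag
Rarg: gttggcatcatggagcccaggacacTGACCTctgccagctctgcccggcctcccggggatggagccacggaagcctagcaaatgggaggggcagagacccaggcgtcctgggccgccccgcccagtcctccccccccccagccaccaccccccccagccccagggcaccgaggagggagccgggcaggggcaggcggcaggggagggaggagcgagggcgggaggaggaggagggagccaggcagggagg
The Rarb stretch holds the repeat as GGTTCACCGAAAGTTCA, from position -53 to -37 before the start. The repeat was present in 1 of 63 windows listed for the family, each of 300 bases (250 before a start and 50 after), and in 0.861% of all 32851 such windows. The Rarg stretch holds AGGTCA on the opposite strand (printed as TGACCT, -225 to -220), a hexamer that 16.3% of all windows hold. It is the stretch of 1 of 2 start sites listed for Rarg. The Rara stretch shown has neither and is that of 1 of 4 start sites listed, and the window of another Rara start (chr11:98964622-98964921) holds AGGTCA at positions 33 to 38 after the start. A match of letters is a description of the window, and no binding was measured.

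Rarb, which encodes RARβ, read 2.56 and 3.12 in the WT arrays and 5.20 and 5.33 in the KO arrays. Both WT arrays lay below the array median and both KO arrays well above it, with no overlap. It rose by 2.43 ± 0.19 (SE; limma adjusted p = 6.83e-04), from 2.84 ± 0.39 to 5.27 ± 0.10 (SD, n = 2 each). Both WT values lie in the dim range where the scale is compressed, so the size of this difference depends on the floor of the scale and no fold is given. The difference ran from 2.149 without WT replicate 1 to 2.71 without WT replicate 2.

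Rarg, which encodes RARγ, read 5.40 and 5.39 in WT and 6.08 and 6.02 in KO. The arrays of a genotype were closer together than 0.1, and the genotypes did not overlap. Rarg rose by 0.66 ± 0.09 (SE; limma adjusted p = 0.00653). Its adjusted p was 0.0518 without KO replicate 1 and between 0.0249 and 0.0415 without any other array.

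Rara, which encodes RARα, read 8.40 and 8.38 in WT and 7.15 and 7.32 in KO. It went the other way from Rarb and Rarg, with both KO arrays below both WT arrays. Rara fell by 1.16 ± 0.10 on the log2 scale (SE; limma adjusted p = 0.00115), a factor of 2.23, and its adjusted p stayed between 0.00381 and 0.0130 with any array left out. All 3 RAR genes were above the array median in KO, while in WT Rara and Rarg were.

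Of the PPAR genes, Pparg itself did not differ between the labels. It read 9.69 and 9.75 in the WT arrays and 9.59 and 9.73 in the KO arrays, and the arrays overlapped. The difference was -0.06 ± 0.10 (SE; 95% interval -0.31 to 0.19; limma adjusted p = 0.79). Where the probes lie relative to the deleted stretch is not known here, so this reading does not check the genotype. Every direction given is that of the arrays labelled KO against those labelled WT.

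Ppard, which encodes the fatty acid receptor PPARδ, read 6.61 and 6.51 in WT and 7.10 and 7.07 in KO. The KO arrays lay above the WT arrays. Ppard rose by 0.53 ± 0.10 (SE; limma adjusted p = 0.0167), and lost the call when WT replicate 2 (adjusted p = 0.0675), KO replicate 1 (0.0931) or KO replicate 2 (0.0822) was left out. Ppara, which encodes the fasting-response receptor PPARα, read 2.04 and 2.04 in WT and 2.33 and 2.29 in KO, all below the array median (0.27 ± 0.09, limma adjusted p = 0.125).

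The RXR genes, whose products pair with PPARs, RARs, LXRs, the vitamin D receptor and thyroid hormone receptors, did not pass the test. Rxra read 8.45 and 8.60 in WT and 8.18 and 8.50 in KO, where the genotypes overlapped. Its difference was -0.18 ± 0.14 (95% interval -0.51 to 0.15). Rxrb read 6.01 and 6.05 in WT and 5.76 and 5.99 in KO, with the KO arrays just below the WT arrays and a difference of -0.16 ± 0.11 (95% interval -0.44 to 0.11). Rxrg read 1.93 and 2.06 in WT and 2.02 and 2.21 in KO, below the array median throughout. A change of 1 or more in Rxra or Rxrb, as seen for Rara, lies outside these intervals.

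**Figure D3:**
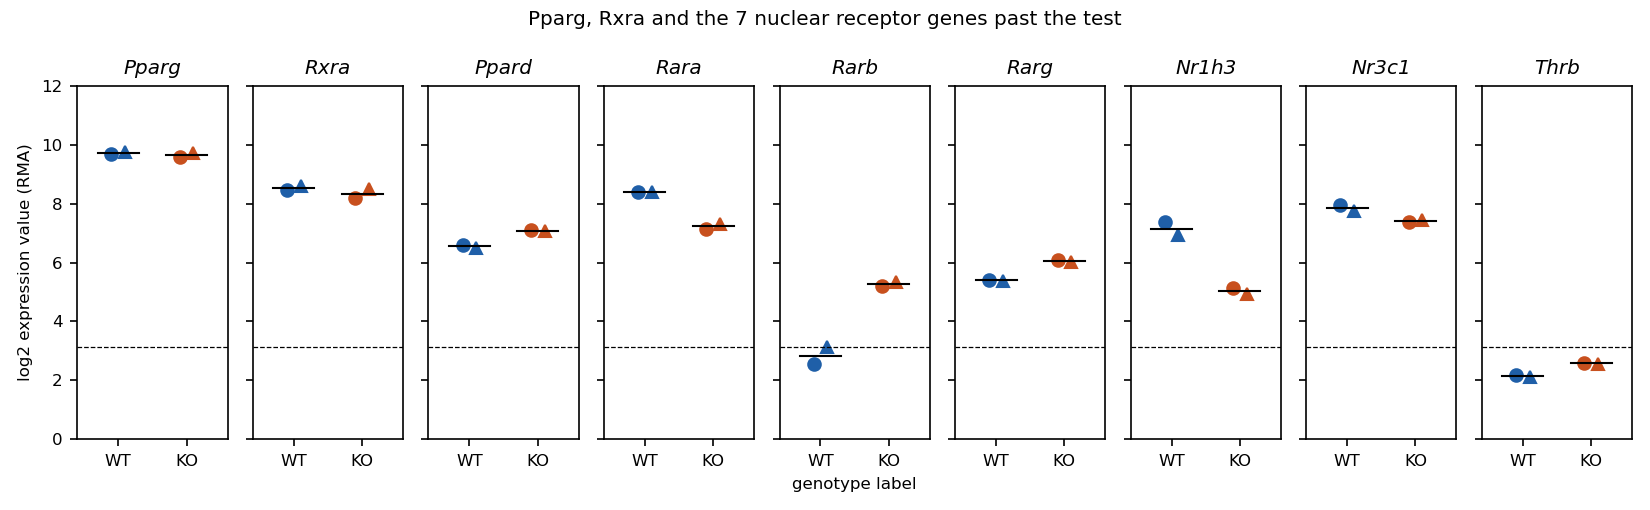
Log2 expression value (vertical axis) of Pparg, Rxra and the 7 nuclear receptor genes past the test in WT and KO (horizontal axis). Circles are replicate 1, triangles replicate 2, black lines group means and the dashed line the array median of 3.137. The arrays of the genotypes overlap for Pparg and Rxra and not for the other 7 genes.

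Nr1h3, which encodes the oxysterol receptor LXRα, read 7.38 and 6.92 in WT and 5.15 and 4.95 in KO. It had the largest fall in the family, and both KO arrays stayed above the array median. Nr1h3 fell by 2.11 ± 0.17 on the log2 scale (SE; limma adjusted p = 7.90e-04), a factor of 4.31, with differences from -2.34 to -1.88 as single arrays were left out. The related bile acid receptor gene Nr1h4 read between 1.88 and 1.98 on the 4 arrays. Nr1h2, which encodes LXRβ, was not analysed here, so the total LXR message is not known.

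Of the steroid receptors, Nr3c1, which encodes the glucocorticoid receptor, read 7.96 and 7.76 in WT and 7.38 and 7.44 in KO. The KO arrays lay below the WT arrays. Nr3c1 fell by 0.45 ± 0.11 on the log2 scale (SE; limma adjusted p = 0.0449), close to the threshold. Leaving out WT replicate 1 gave an adjusted p of 0.188, KO replicate 1 gave 0.190 and KO replicate 2 gave 0.142. Nr3c2, which encodes the mineralocorticoid receptor, read 4.01 and 3.85 in WT and 3.49 and 4.12 in KO, the KO arrays lying on either side of WT.

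Of the sex steroid receptor genes, Esr1, which encodes estrogen receptor α, read 2.81 and 3.04 in WT and 3.39 and 3.22 in KO, crossing the array median without passing the test (0.38 ± 0.12, limma adjusted p = 0.111). Esr2 and Pgr, the genes of estrogen receptor β and the progesterone receptor, lay between 1.68 and 1.96 on all arrays. Thrb, which encodes thyroid hormone receptor β, read 2.17 and 2.12 in WT and 2.58 and 2.56 in KO. It rose by 0.43 ± 0.09 (SE; limma adjusted p = 0.0316) while staying below the array median on all 4 arrays. The call was lost whichever array was left out, with adjusted p from 0.0939 to 0.137. Vdr, which encodes the vitamin D receptor, read 7.78 and 8.01 in WT and 7.93 and 7.94 in KO, a difference of 0.04 ± 0.11 (95% interval -0.24 to 0.31).

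**Figure D4:**
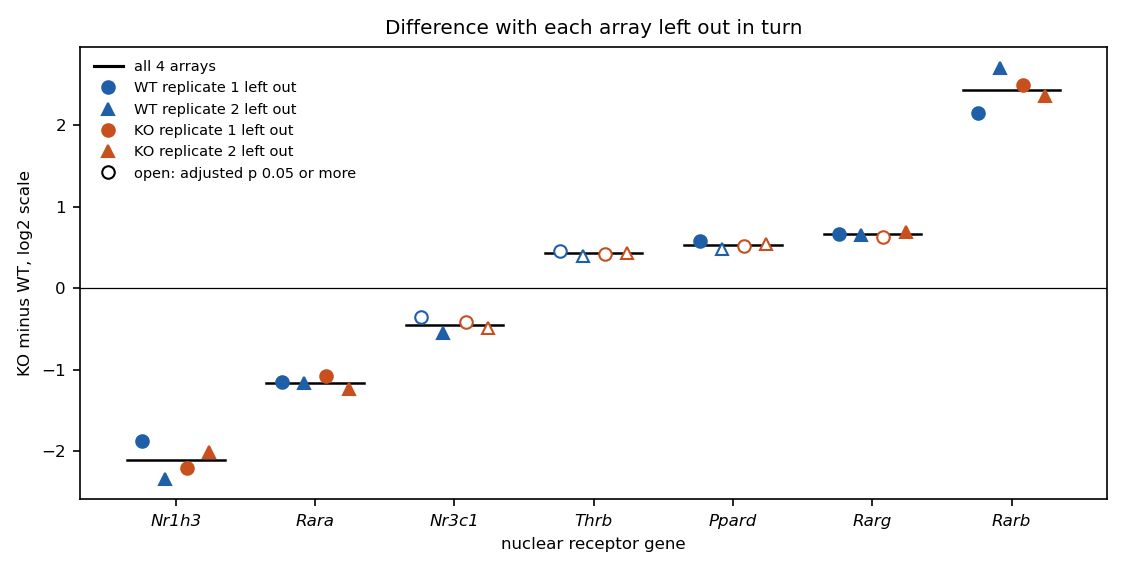
KO minus WT difference on the log2 scale (vertical axis) of the 7 nuclear receptor genes past the test (horizontal axis), with all 4 arrays (black line) and with each array left out in turn (points, filled where the adjusted p stayed under 0.05). Nr1h3, Rara and Rarb keep filled points throughout, and the 4 points of Thrb are open.

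The NR4A genes, which encode Nur77, Nurr1 and NOR1, are immediate early genes whose products act without a known natural ligand in their pocket. All 3 were above the array median in both genotypes. Nr4a1 read 10.6 and 10.7 in WT and 10.7 and 10.7 in KO (0.05 ± 0.10). Nr4a2 read 9.64 and 9.91 in WT and 10.2 and 10.1 in KO, with the KO arrays above the WT arrays and a difference of 0.39 ± 0.12 (SE; limma adjusted p = 0.0987). With a variance that follows the level, the adjusted p of Nr4a2 was 0.0149. Nr4a3 read 8.76 and 9.13 in WT and 9.15 and 9.15 in KO, and WT replicate 1 stood below the other arrays (0.20 ± 0.14, limma adjusted p = 0.437).

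The estrogen-related receptor gene Esrra, whose product drives mitochondrial genes, read 5.11 and 4.99 in WT and 4.73 and 4.90 in KO. The KO arrays lay below the WT arrays, and the difference of -0.24 ± 0.11 was not past the test (limma adjusted p = 0.244). Esrrb and Esrrg were below the array median on all arrays. Nr6a1, which encodes germ cell nuclear factor, read 4.23 and 4.25 in WT and 3.98 and 4.10 in KO (-0.20 ± 0.10, limma adjusted p = 0.278).

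Rora, which encodes the sterol-binding activator RORα of the clock loop, read 6.53 and 6.57 in WT and 6.49 and 6.34 in KO (-0.13 ± 0.10, limma adjusted p = 0.499). Nr1d2, which encodes the heme-binding repressor REV-ERBβ, read 5.44 and 5.09 in WT and 5.04 and 5.52 in KO, with as much spread inside a genotype as between them (0.01 ± 0.19). A second, dim probe set of Nr1d2 read 1.45 to 1.59. The gene of REV-ERBα, Nr1d1, overlaps Thra on the opposite strand, and both names stand on 2 probe sets. The brighter read 5.84 and 5.73 in WT and 4.72 and 4.596 in KO, and the dimmer 4.69 and 4.64 in WT and 3.68 and 3.60 in KO. Both were lower in KO by about the same amount, -1.12 and -1.02, and cannot be assigned to either gene or entered in the counts above. Among the NR2 orphans, Nr2c1, Nr2c2 and Nr2f6 were above the array median, and in all 8 NR2 and HNF4 genes the genotypes overlapped, with differences from -0.16 to 0.18.

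Over the family the arrays of the genotypes did not overlap in 20 of 41 genes, 10 with KO above and 10 with KO below, beside 55.3% of all genes (25.3% above and 30.0% below). Among the 20 expressed in WT they did not overlap in 11, 4 with KO above and 7 below, beside 69.6% of all genes above the array median (29.1% above and 40.6% below). Among the 15 genes expressed in WT that did not pass the test, 95% intervals of the difference reached from -0.63 to 0.69 at the widest. A doubling or halving of any of these 15 lies outside its interval.

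Genes around the receptors were taken from 6 lists written from general knowledge of their targets, ligands and partners. Of 33 measured targets of PPAR and RXR dimers, 15 fell, 0 rose and 18 were not past the test, with a median of -0.44 beside -0.015 for all genes. That is 45.5% changed, beside 14.3% of all genes and 23.5% of genes above the array median in WT. Cidec, which encodes a lipid droplet protein, fell by 5.67 ± 0.10, Fabp1, a fatty acid-binding protein gene, by 5.96 ± 0.18, and Ucp3, a mitochondrial carrier gene, by 1.96 ± 0.10 (SE; limma adjusted p = 8.27e-06, 2.71e-05 and 1.64e-04). Between 12 and 16 fell with single arrays left out. Fabp1 was below the array median in KO, so the size of its fall depends on the floor of the scale. Cidec and Fabp1 are also among the 5 of 13 alveolar macrophage markers that fell, and the part of cell identity was not tested.

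Known targets of LXR went both ways. Of 22 measured, 4 rose (Apoe, Apoc2, Smpdl3a and Il1rn), 7 fell (Nr1h3, Lpl, Mylip, Abcg1, Lpcat3, Scd2 and Mertk) and 11 were not past the test, with a median of -0.17. In all, 11 of the 22 changed, beside 14.3% of all genes. Among genes above the array median in WT, where 18 of the 22 lay, 23.5% changed. Nr1h3 is in this list and is also a member of the family described, so its fall is counted in both. Lpl also stands among the targets of PPAR and RXR dimers, and Mertk among those of the glucocorticoid receptor, so each is counted again there. Of the 7 that fell, Mertk was closest to the threshold (-0.48 ± 0.11, limma adjusted p = 0.0351). Abcg1, which encodes a cholesterol exporter, fell by 0.86 ± 0.10 on the log2 scale, Mylip, which encodes a ligase that removes the LDL receptor, by 0.95 ± 0.10, and Lpcat3, a phospholipid remodelling enzyme gene, by 0.68 ± 0.10. Apoe, which encodes a lipoprotein carrier, went against them and rose by 3.91 ± 0.25, and Apoc2 rose by 2.20 ± 0.19. Abca1, which encodes another cholesterol exporter, differed by -0.04 ± 0.11 and missed the threshold. On leaving out KO replicate 1, 2 rose (Apoe and Apoc2).

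Of 19 measured targets of the glucocorticoid receptor, 4 rose (Nfkbia, Errfi1, Klf9 and Sesn1), 2 fell (Tgm2 and Mertk) and 13 were not past the test. The median was 0.14. That is 31.6% changed, beside 14.3% of all genes. Of genes above the array median in WT, where 15 of the 19 lay, 23.5% changed. Tgm2, a transglutaminase gene that retinoic acid also induces, fell by 0.85 ± 0.10. Nfkbia, which encodes an NF-κB inhibitor, rose by 1.09 ± 0.14 and Errfi1, which encodes a feedback inhibitor of the EGF receptor, by 1.05 ± 0.14. On leaving out WT replicate 1, or either KO replicate, 2 rose, and with any array left out 1 fell.

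Of 16 measured clock genes, 2 fell, 0 rose and 14 were not past the test, with a median of -0.06. That is 12.5% changed, close to the share of all genes, and gives no result about the list. The genes that fell were the repressor genes Cry1 (-0.85 ± 0.15, limma adjusted p = 0.0139) and Cry2 (-0.44 ± 0.11, limma adjusted p = 0.0423). Of them 0 passed without KO replicate 2 and 1 without any other array. The clock activator genes Arntl and Clock and the repressor genes Per1 and Per2 were among those that missed the threshold.

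**Figure D5:**
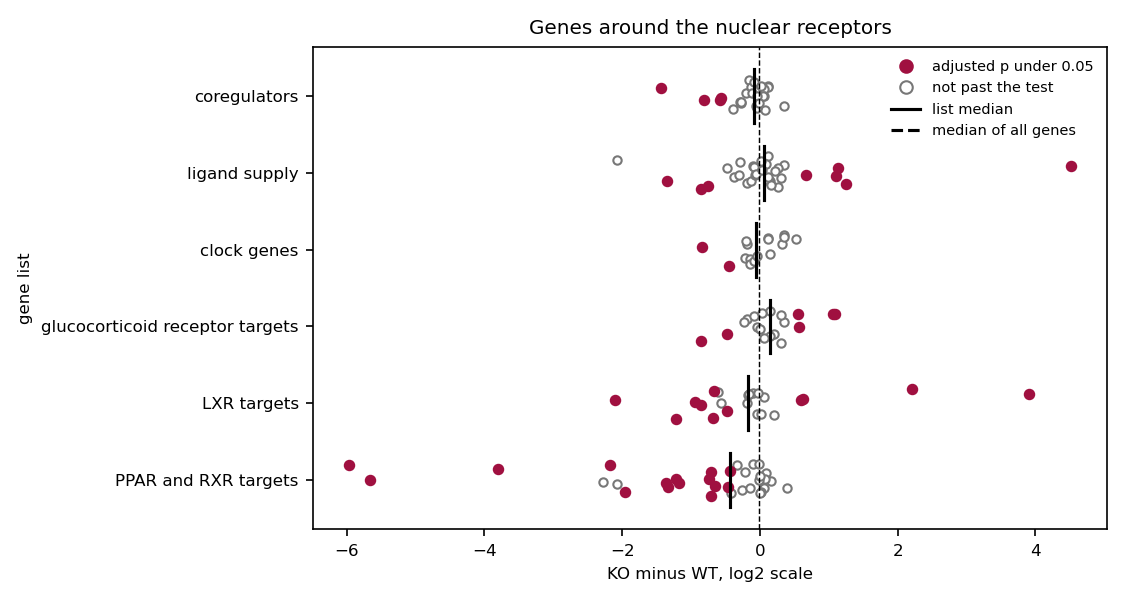
KO minus WT difference on the log2 scale (horizontal axis) of each measured gene of 6 lists (vertical axis). Filled points have an adjusted p under 0.05, bars are list medians and the dashed line is the median of all genes. In the PPAR and RXR target list 15 filled points lie below 0 and 0 above it, while LXR targets lie on both sides.

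Of 32 measured genes that make, break down or carry ligands, 5 rose, 3 fell and 24 were not past the test, with a median of 0.06. That is 25.0% changed, beside 14.3% of all genes. Of genes above the array median in WT, where 13 of the 32 lay, 23.5% changed. Ptgs2, a prostaglandin synthase gene, rose by 4.52 ± 0.30. Of the oxysterol-forming enzyme genes, Ch25h (1.26 ± 0.14) and Cyp27a1 (1.10 ± 0.13) rose, while Cyp46a1 was below the array median and differed by -0.06 ± 0.15. Sult2b1, which encodes a sulfotransferase that inactivates oxysterols, fell by 1.34 ± 0.16. The other genes that rose were Fabp5 and the retinol dehydrogenase gene Dhrs9, and the others that fell were the lipoxygenase gene Alox5 and Hsd11b1, whose product activates glucocorticoids (-0.75 ± 0.15). Fabp5 lost the call on leaving out KO replicate 1 (adjusted p = 0.0828) or KO replicate 2 (0.0744). Hsd11b1 lost it on leaving out WT replicate 2 (0.0509), KO replicate 1 (0.126) or KO replicate 2 (0.0838). Fabp4, whose WT arrays were far apart (7.57 and 5.21), differed by -2.07 ± 0.68 and was not past the test (limma adjusted p = 0.109).

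Among the retinoid genes of that list, Dhrs9 was the 1 past the test. It read 2.39 and 2.53 in WT and 3.97 and 3.21 in KO (1.13 ± 0.24, limma adjusted p = 0.0266), with the KO arrays far apart. Its adjusted p was 0.0913 on leaving out WT replicate 1 and 0.0533 on leaving out WT replicate 2. The retinoic acid-forming enzyme genes Aldh1a1, Aldh1a2 and Aldh1a3 and the retinoic acid-degrading enzyme genes Cyp26a1 and Cyp26b1 lay below the array median on all 4 arrays. Dhrs3, which encodes a retinal reductase and is itself induced by retinoic acid, read 10.0 and 9.98 in WT and 9.99 and 10.0 in KO, a difference of 0.03 ± 0.09.

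Of 25 measured coregulators, 4 fell, 0 rose and 21 were not past the test, with a median of -0.09. That is 16.0% changed, near the share of all genes and under that of genes above the array median in WT, where 24 of the 25 lay, so the count gives no result about the list. Ncoa4, named for androgen receptor coactivation and known for carrying ferritin to the lysosome, fell by 1.43 ± 0.13. Nrip1, which encodes the corepressor RIP140, fell by 0.81 ± 0.11, Ncoa1, which encodes the coactivator SRC-1, by 0.56 ± 0.10, and the corepressor gene Lcor by 0.58 ± 0.13 (SE; limma adjusted p from 0.00127 to 0.0337 for the 4). On leaving out WT replicate 1 or KO replicate 1, 2 of the list fell (Ncoa4 and Nrip1). Med1, Ep300, Crebbp, Hdac3, Tbl1xr1 and Ppargc1b were above the array median in both genotypes and not past the test, and Ppargc1a lay between 2.18 and 2.38 on all arrays.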

How the data were processed

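The 4 arrays are Affymetrix arrays of total RNA. The deposited values are log2 expression values per probe set, which the authors computed by RMA (R 2.15.2, as the submitters' processing notes list). RMA gives the arrays 1 shared distribution (sorted values differed by at most 0.012), so a shift shared by most transcripts is lost, and low values are compressed. The sources used here do not give the RMA settings. Of 28371 probe sets, 21158 had 1 symbol in the platform annotation, 1881 several and 5332 none. Entrez identifiers of 21128 were found in the RefSeq table, and 0 symbols changed. Keeping 1 probe set a gene, the brightest, left 18782 genes, dim ones included.

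The fit used limma 3.58.1 under R 4.3.3 (KO against WT, group as the only term, empirical Bayes, two-sided, Benjamini-Hochberg adjustment over all genes, 2 residual and 4.16 prior degrees of freedom). The number of arrays limits precision. An exact permutation of 2 against 2 arrays cannot go below p = 0.333 (two-sided) and was not used. The procedure was also run on simulated arrays with independent normal noise of the fitted variances. Such arrays meet the assumptions of the fit, so the run cannot test whether these pooled arrays do. The nuclear receptor genes and the lists were chosen with earlier results of these data known. Values on every array are given for genes past the test, Pparg, the RXR genes and genes above the array median in WT whose genotypes did not overlap. Other genes, and list members beyond the 3 with the smallest p, were chosen after their values were seen, as was the spaced repeat searched in promoters. Promoter windows are RefSeq's (GRCm38.p6) and matched 42 of 46 genes.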

Additional observations from a re-analysis of the deposited data

How the results depend on the processing

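Alternatives were another choice of probe set, dim genes left out, a further quantile normalization, centring on expressed genes, limma with an intensity trend, robust or without moderation, a test against a difference of 0.5, a replicate block and each array left out. Without moderation 0 genes passed after adjustment, so 0 nuclear receptor genes rose and 0 fell, with 3635 genes (8 of the family) at an unadjusted p under 0.05. Against a difference of 0.5, 834 genes passed, 1 nuclear receptor gene rose (Rarb) and 2 fell (Nr1h3 and Rara). With single arrays left out, 1382 to 2284 genes passed, 1 to 3 nuclear receptor genes rose and 2 to 3 fell, and the difference of Pparg ran from -0.12 to 0.01. Above the 75th percentile of probe sets, in place of the median, lay 12 nuclear receptor genes in WT. With the replicate number as a replicate block, 2477 genes passed, 3 nuclear receptor genes rose and 2 fell, with Thrb (adjusted p = 0.057) and Nr3c1 (0.0694) lost. Arrays with the same number did not deviate together (r = -0.017 over genes, dim ones included). That value cannot show whether such arrays shared a sort or a batch, and the labels state no pairing. Each limit above comes from 2 arrays a group. Of 222 alternatives to the differences of the 16 genes given in full, 196 kept direction and side of the threshold. The 16 include genes not past the test, such as Pparg and the RXR genes, which mostly stayed so. Most of the other alternatives were lost calls of Thrb, Nr3c1, Ppard and Rarg. Nr1h3, Rara and Rarb lost the call only without moderation.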
